A study of Mus musculus with 18 samples.

Results

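The nuclear genes of the respiratory chain were followed in 3 brain regions of mice with and without the transcription factor Nrf2 (gene symbol Nfe2l2). Members were all genes on the array whose symbol starts with Ndufa, Ndufb, Ndufs, Ndufv, Sdh, Uqcr, Cox4 to Cox8 or Atp5. They numbered 93 of 18217 named genes, measured by 118 probes, and 91 were tested. By complex, the 93 were 7 core subunits, 27 accessory subunits and 7 assembly factors (Ndufaf) of complex I, 4 subunits and 4 assembly factors (Sdhaf) of complex II, 8 genes of complex III, 19 of complex IV and 17 of complex V. RefSeq lists 117 symbols of this kind, of which 24 had no probe, and the chain subunits encoded in mitochondrial DNA are outside the rule.

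The samples were 18 Agilent 1-colour arrays of male 129SV mice, wild type or Nrf2 knockout, from cortex, hippocampus and brainstem, with 3 arrays in each of the 6 groups. The mice were unstressed, per the title of the study, and their age was not given in the labels. Each array was made from separately prepared RNA, per the design text, and the labels number the mice of a group from 1 to 3. A level here is the log2 intensity of a spot minus that of the array's 75th percentile, so a difference of 1 is a 2-fold difference. Errors after ± are standard errors of a difference in the limma fit, and a gene was called when its p, adjusted by Benjamini-Hochberg over all 22675 genes tested, was under 0.05. The labels number the mice 1 to 3 within each genotype and region and call the 3 RNAs of a group independent, without stating that a number is the same mouse in every region.

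Complex I takes electrons from NADH and complex II takes them from succinate, and both pass them to ubiquinone. Complex III hands them to cytochrome c, complex IV passes them to oxygen, and complexes I, III and IV pump protons across the inner membrane. Complex V, the ATP synthase, lets the protons back and makes ATP, which neurons spend mainly on ion gradients and synaptic transmission. In complex I the core subunits together carry the electrons and accessory subunits hold the complex together. Assembly factors act while a complex is built without staying in it. Several subunits of complex IV have isoforms that differ between tissues, with one form in heart and skeletal muscle and another in most other tissues.

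Many respiratory chain genes are known targets of the nuclear respiratory factor NRF1 and of GABP. GABP is also called nuclear respiratory factor 2 and is a different protein from the Nrf2 deleted here, which binds antioxidant response elements. RefSeq promoter windows of the GRCm38.p6 build were therefore searched on both strands for the letters of these motifs. Each window ran from 250 bases before to 50 bases after a start, and 77 of the 93 members had one. The NRF1 motif, searched as GCGCA and GCGC with any 1 base between them, was in 21 of 77 members (27.3%), against 5.19% of 27025 genes. GABP's motif, searched as CCGGAAG, was also in 21 (27.3%, against 9.93%). That of YY1, searched as AANATGGCG, was in 10 (13.0%, against 2.76%). The core of the antioxidant response element, TGACNNNGC, was in 12 members (15.6%), against 14.0% of all genes. A match describes letters in the window and is no evidence of binding.

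The promoter windows of 4 genes on which the results below turn are shown. Cox7a1 and Ndufa10 were the subunit genes with the largest called differences between brainstem and cortex in wild-type mice, and Uqcr11 and Ndufs5 were the members with the smallest unadjusted p for genotype. The windows lie at chr7:30183921-30184220 on the plus strand for Cox7a1, and on the minus strand at chr1:92473709-92474008 for Ndufa10, chr10:80406772-80407071 for Uqcr11 and chr4:123718137-123718436 for Ndufs5. Capitals mark the motif matches, which are the antioxidant response core in Ndufa10, the GABP motif in Uqcr11, and the antioxidant response core followed by the NRF1 motif in Ndufs5. Cox7a1 held none of the 4 motifs in this window, and the matches marked in one window do not overlap.
Cox7a1: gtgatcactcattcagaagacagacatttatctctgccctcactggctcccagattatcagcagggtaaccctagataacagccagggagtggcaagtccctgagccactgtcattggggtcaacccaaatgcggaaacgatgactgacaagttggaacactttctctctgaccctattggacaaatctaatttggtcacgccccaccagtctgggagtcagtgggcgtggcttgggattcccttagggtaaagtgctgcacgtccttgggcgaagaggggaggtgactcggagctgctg
Ndufa10: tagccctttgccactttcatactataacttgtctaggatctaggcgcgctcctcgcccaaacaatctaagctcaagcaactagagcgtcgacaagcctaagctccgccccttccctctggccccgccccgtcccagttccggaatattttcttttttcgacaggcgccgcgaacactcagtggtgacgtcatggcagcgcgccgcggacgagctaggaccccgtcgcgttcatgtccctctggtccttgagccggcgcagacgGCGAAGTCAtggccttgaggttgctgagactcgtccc
Uqcr11: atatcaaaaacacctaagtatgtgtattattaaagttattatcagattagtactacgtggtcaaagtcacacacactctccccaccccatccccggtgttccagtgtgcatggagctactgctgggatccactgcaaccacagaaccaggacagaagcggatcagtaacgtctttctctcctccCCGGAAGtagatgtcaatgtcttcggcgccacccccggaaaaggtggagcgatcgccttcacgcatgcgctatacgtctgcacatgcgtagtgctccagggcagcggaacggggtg
Ndufs5: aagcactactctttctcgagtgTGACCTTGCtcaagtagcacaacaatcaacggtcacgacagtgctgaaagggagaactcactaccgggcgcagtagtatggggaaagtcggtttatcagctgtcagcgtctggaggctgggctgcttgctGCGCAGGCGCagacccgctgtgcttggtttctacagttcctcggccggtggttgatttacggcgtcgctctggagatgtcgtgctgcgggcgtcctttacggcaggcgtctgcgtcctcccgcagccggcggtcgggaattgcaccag

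The spots well above background numbered 28326 to 32582 on an array, and 0 were saturated. Nfe2l2 itself lay between 0.79 and 1.39 on the 9 wild-type arrays and between -8.39 and -3.62 on the 9 knockout arrays. The labels do not say which part of the gene was deleted. The arrays were spread over 5 slides, and each slide held both genotypes. Brainstem arrays 1 and 2 were on slide 1, brainstem 3 and hippocampus 1 on slide 2, hippocampus 2 and 3 on slide 3, cortex 1 and 2 on slide 4, and cortex 3 on slide 5. Cortex therefore shared no slide with another region, and for comparisons with cortex slide and region cannot be told apart. In these whole tissues, fewer cells of a type and less RNA per cell cannot be told apart either.

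By group mean, the members were highest in brainstem and lowest in hippocampus in most cases, and such ranks were not counted over all genes. Calls of lower in hippocampus than in cortex were few, with 4 members in wild-type and 1 in knockout mice (10.4% and 9.43% of all genes). The mean of the group was highest in brainstem for 73 of 91 members in wild-type mice and for 75 in knockout mice. The order brainstem, cortex, hippocampus held for 58 members in wild-type and 51 in knockout mice. Compared with wild-type cortex, 24 members (26.4%) were higher in wild-type brainstem and 2 were lower, where 19.1% of all genes tested were higher and 16.6% lower. Compared with wild-type hippocampus, 40 members (44%) were higher and 0 lower, where 23% of all genes were higher and 18.5% lower, and 53 members had an unadjusted p under 0.05 in limma (49.5% of all genes). The median difference over members was 0.18 from cortex and 0.30 from hippocampus, whereas over all genes it was 0.029 and 0.011.

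The regional difference was small for a typical member. In the comparison with cortex, its size and the count of calls depended on how arrays were scaled, which shifts all genes of an array alike. With each array scaled by its median, 12 members were higher and 3 lower in wild-type brainstem than in cortex, and the median difference of members was 0.095. The median of all genes moved with it, from 0.029 to -0.058. In either direction 7848 of all genes were then called, against 8108, and the share higher alone is not given here. Scaled this way, 37 members were higher in brainstem than in hippocampus and 0 lower. On slide 2, which held 1 brainstem and 1 hippocampal array of each genotype, the median difference of members between these regions was 0.24 in wild-type and 0.46 in knockout mice, and it was above 0 for 81 and 87 of 91.

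Array by array, the deviation of the members from their own means over the 18 arrays was summarised by its median. In wild-type mice this median lay between -0.10 and -0.0030 in cortex, between -0.20 and -0.14 in hippocampus and between 0.076 and 0.21 in brainstem. On the knockout arrays it lay between -0.083 and 0.061 in cortex and between -0.16 and 0.032 in hippocampus, and it was -0.0077, 0.16 and 0.33 in brainstem. The brainstem array of knockout mouse 1 was the one that fell among the other regions, and the remaining 5 brainstem arrays lay above all 12 arrays of cortex and hippocampus. Over all genes the median lay between -0.040 and 0.058 on the 18 arrays.

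**Figure D1:**
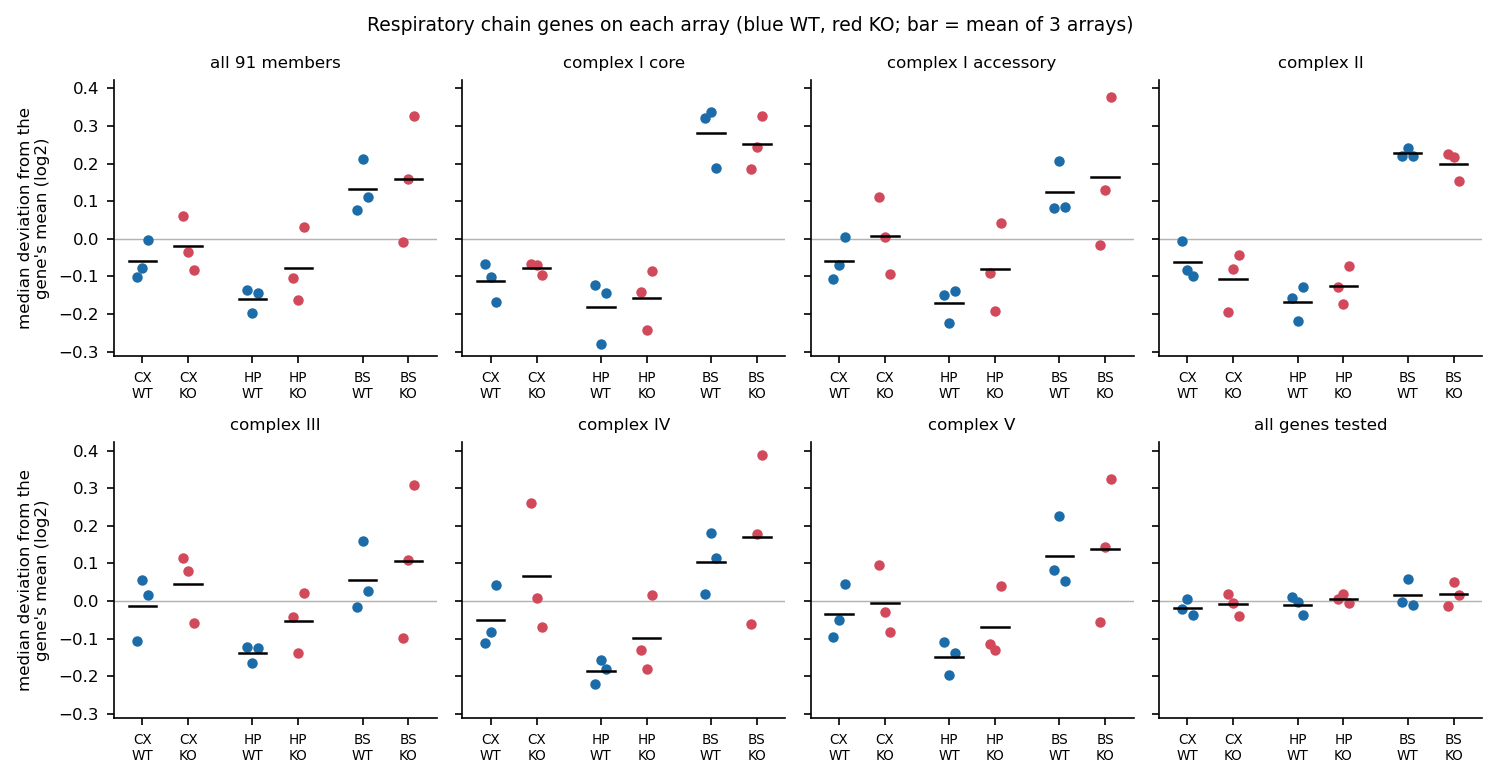
Median deviation, in log2 units, of the 91 tested members (and of the groups by complex drawn in the plot) from their own mean over the 18 arrays, one point per array, by region and genotype. Brainstem points lie highest, with 5 of 6 above every array of cortex and hippocampus for all members, and the wild-type hippocampal points lie lowest, between -0.20 and -0.14.

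The 7 nuclear core subunits of complex I together carry the flavin and the iron-sulphur clusters, and most of the 7 were higher in brainstem. From wild-type cortex to wild-type brainstem, 5 of 7 were called as higher (71.4%, against 19.1% of all genes), with a median difference of 0.43, and from hippocampus 6 of 7 were (85.7%, against 23%), with a median of 0.45. Their median deviation was 0.19 to 0.34 on the 6 brainstem arrays and -0.28 to -0.067 on the 12 others, with no overlap.

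Ndufv2, an iron-sulphur subunit of the NADH-binding end of complex I, had the largest core difference from cortex. Its wild-type levels were 2.95, 2.82 and 3.01 in cortex, between 3.07 and 3.14 in hippocampus and 3.51, 3.40 and 3.63 in brainstem. The knockout levels were 2.90, 2.80 and 3.11 in cortex, 3.19, 2.94 and 3.26 in hippocampus and 3.50, 3.36 and 3.64 in brainstem. In both genotypes the brainstem arrays lay above all those of the other regions, and brainstem exceeded cortex by 0.59 ± 0.11 in wild-type (limma adjusted p = 0.000782) and 0.56 ± 0.11 in knockout mice (adjusted p = 0.00111). From hippocampus the differences were 0.41 and 0.37, and the knockout call was lost without the array of brainstem_KO 3 (adjusted p = 0.0580) or of hippocampus_KO 2 (adjusted p = 0.0847).

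Ndufs1, the largest core subunit, was also higher in brainstem. It lay at 4.95, 4.94 and 4.85 in wild-type cortex, 4.87, 4.71 and 4.75 in hippocampus and 5.38, 5.42 and 5.21 in brainstem. In knockout mice the levels were 5.04, 4.86 and 4.91, then 4.84, 4.68 and 4.92, and 5.28, 5.29 and 5.42 in the same order of regions. The brainstem arrays did not overlap the others, and brainstem exceeded cortex by 0.43 ± 0.093 in wild-type (limma adjusted p = 0.00226) and 0.39 ± 0.093 in knockout mice (adjusted p = 0.00429).

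Ndufs7, an iron-sulphur subunit close to the ubiquinone site of complex I, was higher in brainstem than in cortex by 0.41 ± 0.092 in wild-type (limma adjusted p = 0.00269) and by 0.37 ± 0.092 in knockout mice (adjusted p = 0.00543). It was higher than in hippocampus by 0.55 in wild-type and 0.43 in knockout mice, the latter at 0.33 (adjusted p = 0.0638) with the slide block. Ndufv1, which binds NADH, was called from hippocampus, with 0.42 ± 0.088 in wild-type and 0.40 in knockout mice, and was at 0.19 from wild-type cortex (adjusted p = 0.110).

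Ndufs3 and Ndufs8, core subunits that the naming rules do not cover, were named after their values were seen. Ndufs8 was higher in brainstem than in cortex by 0.43 ± 0.12 in wild-type mice (limma adjusted p = 0.0133), a call lost with median scaling (adjusted p = 0.0615) and without brainstem_WT 2 (adjusted p = 0.0592). In knockout mice its call from cortex was lost in 9 of 16 alternatives (adjusted p up to 0.166). Ndufs3 differed from wild-type cortex by -0.04 ± 0.13 and from hippocampus by -0.01, with an interval of -0.31 to 0.23 for the first, and was called in neither genotype.

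Among the 27 accessory subunits of complex I, 6 were called as higher in wild-type brainstem than in cortex (22.2%, near the 19.1% of all genes) and 13 than in hippocampus (48.1%, against 23%), with medians of 0.17 and 0.30. Ndufa10, an accessory subunit on the matrix side of the membrane arm, lay at 3.19, 2.99 and 2.80 in wild-type cortex, 3.31, 3.18 and 3.12 in hippocampus and 3.84, 3.80 and 3.61 in brainstem. On the knockout arrays it was at 3.09, 3.01 and 2.91, at 3.23, 3.19 and 3.36, and at 3.66, 3.74 and 3.63. All 6 brainstem arrays lay above the 12 others, with differences from cortex of 0.76 ± 0.11 in wild-type (limma adjusted p = 5.19e-05) and 0.67 ± 0.11 in knockout mice (adjusted p = 0.000169). From knockout hippocampus it was higher by 0.42, and by 0.29 with the slide block, where it was not called (adjusted p = 0.0986).

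Ndufb8, an accessory subunit of the proton-pumping membrane arm, had the largest complex I difference between brainstem and hippocampus apart from an assembly factor. It was between 5.96 and 6.01 in wild-type hippocampus and at 6.63, 6.86 and 6.54 in wild-type brainstem, with cortex between them at 6.23, 6.27 and 6.19. Knockout mice had 6.09, 6.12 and 6.23 in hippocampus, 6.63, 6.82 and 6.71 in brainstem, and 6.32, 6.40 and 6.07 in cortex. Brainstem exceeded hippocampus by 0.68 ± 0.10 in wild-type (limma adjusted p = 9.26e-05) and 0.57 ± 0.10 in knockout mice (adjusted p = 0.000434). Hippocampus and cortex were not called apart in either genotype (-0.23, adjusted p = 0.146, and -0.12, adjusted p = 0.501).

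Of the 7 Ndufaf genes, assembly factors of complex I, 3 were higher in wild-type brainstem than in cortex and 3 than in hippocampus. That share of 42.9% compares with 19.1% and 23% of all genes. Their median deviation was 0.14 to 0.23 on the brainstem arrays against -0.19 to -0.030 elsewhere. Ndufaf2, which acts late in complex I assembly, was at 2.73, 2.72 and 2.73 in wild-type cortex, 2.57, 2.53 and 2.68 in hippocampus and 3.29, 3.58 and 3.39 in brainstem. Its knockout levels were 2.74, 2.79 and 2.68 in cortex, 2.67, 2.50 and 2.76 in hippocampus and 3.48, 3.50 and 3.52 in brainstem. The brainstem arrays did not overlap the 12 others, and brainstem exceeded cortex by 0.69 ± 0.091 in wild-type (limma adjusted p = 2.90e-05) and 0.76 ± 0.091 in knockout mice (adjusted p = 1.15e-05). From hippocampus the differences were 0.83 and 0.86 (adjusted p = 4.04e-06 and 2.97e-06).

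Complex II, which is also the succinate dehydrogenase of the citrate cycle, has 4 subunits, all encoded in the nucleus. Of these, 3 were higher in brainstem than in cortex and 3 than in hippocampus in each genotype. That share of 75% compares with 19.1% and 23% of all genes in wild-type mice and 18.9% and 21.7% in knockout mice. The median deviation of the complex was 0.15 to 0.24 on the 6 brainstem arrays and -0.22 to -0.0053 on the 12 others. Sdhb, the iron-sulphur subunit, was at 3.78, 3.78 and 3.68 in wild-type cortex, 3.61, 3.65 and 3.61 in hippocampus and 4.05, 4.06 and 4.01 in brainstem. In knockout mice it was at 3.69, 3.69 and 3.70, at 3.67, 3.66 and 3.73, and at 4.01, 4.05 and 3.94. Brainstem did not overlap the other regions, and it exceeded cortex by 0.29 ± 0.068 in wild-type (limma adjusted p = 0.00337) and 0.30 ± 0.068 in knockout mice (adjusted p = 0.00262).

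The flavoprotein subunit Sdha was higher in brainstem than in cortex by 0.30 ± 0.094 in wild-type (limma adjusted p = 0.0210) and 0.31 ± 0.094 in knockout mice (adjusted p = 0.0168). With median scaling both were at 0.21 and 0.23 and not called (adjusted p = 0.143 and 0.115), and Sdhb in wild-type mice was at 0.21 (adjusted p = 0.0508). The Sdha call from cortex was also lost without brainstem_WT 3, cortex_WT 2 or cortex_WT 3 in wild-type mice, and without brainstem_KO 1, brainstem_KO 2 or cortex_KO 1 in knockout mice (adjusted p from 0.0533 to 0.0797). Sdhc and Sdhd, named after their values were seen, anchor the enzyme in the membrane. Sdhc was higher than in wild-type cortex by 0.37 ± 0.11, which was not called with median scaling (0.28, adjusted p = 0.0608) or without brainstem_WT 1 (adjusted p = 0.0577), and Sdhd was at 0.20 ± 0.13 (adjusted p = 0.248).

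The assembly factors of complex II went apart. Sdhaf3, which helps to mature Sdhb, was at -1.68, -1.74 and -1.48 in wild-type cortex, -1.76, -1.67 and -1.56 in hippocampus and -0.98, -0.95 and -0.80 in brainstem. The knockout levels were -1.38, -1.61 and -1.44, then -1.54, -1.57 and -1.20, and -1.21, -0.98 and -0.53, so that 1 hippocampal array overlapped brainstem. Brainstem exceeded cortex by 0.73 ± 0.15 in wild-type (limma adjusted p = 0.00173) and 0.57 ± 0.15 in knockout mice (adjusted p = 0.00930, and 0.0526 with median scaling). From knockout hippocampus Sdhaf3 was higher by 0.53 (adjusted p = 0.0129), which was not called without brainstem_KO 3, hippocampus_KO 1 or hippocampus_KO 2 (adjusted p from 0.0520 to 0.0552). Sdhaf1, which protects the iron-sulphur clusters of Sdhb during assembly, was lower in brainstem than in cortex in wild-type mice, at -0.25 ± 0.086 (adjusted p = 0.0343), and was at -0.12 in knockout mice (adjusted p = 0.314). That call was lost with slide as a random block, without a background filter and in 4 of 6 fits without 1 array (adjusted p from 0.0555 to 0.109).

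In complex III, 2 of 8 genes were higher in wild-type brainstem than in cortex and 2 than in hippocampus, with medians of 0.19 and 0.23. That share of 25% was near those of all genes (19.1% and 23%). Uqcrc1, a large core protein of the matrix side, was at 5.04, 4.54 and 4.98 in wild-type hippocampus and 5.38, 5.36 and 5.05 in brainstem. It was called from hippocampus, at 0.41 ± 0.15 (limma adjusted p = 0.0356), but was at 0.23 with slide as a block (adjusted p = 0.422) and at 0.25 without hippocampus_WT 2 (adjusted p = 0.182), and it was not called without brainstem_WT 1 or brainstem_WT 2 (adjusted p = 0.123 and 0.112). Uqcrfs1, the Rieske iron-sulphur protein, was at 0.24 ± 0.22 from wild-type cortex and 0.10 from hippocampus and was called in no comparison. Uqcrh, the hinge protein that meets cytochrome c, was named after its values were seen. It was higher in wild-type brainstem than in cortex by 0.29 ± 0.083 and than in hippocampus by 0.52. The call from cortex was lost with median scaling (0.20, adjusted p = 0.158) and without brainstem_WT 2 (adjusted p = 0.0551).

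Complex IV was mixed, with 2 of 17 tested genes higher and 1 lower in wild-type brainstem than in cortex, and 6 higher than in hippocampus. The shares higher, 11.8% and 35.3%, compare with 19.1% and 23% of all genes. Cox7a1, the isoform of subunit 7a found in heart and skeletal muscle, had the largest called difference of any member. Its wild-type levels were 1.04, 1.12 and 0.91 in cortex, 0.92, 0.75 and 0.48 in hippocampus and 2.16, 2.22 and 1.84 in brainstem. On the knockout arrays they were 1.21, 1.44 and 0.94, then 1.04, 0.53 and 0.85, and 2.06, 2.42 and 2.26. No cortical or hippocampal array reached the lowest brainstem array. Brainstem exceeded cortex by 1.05 ± 0.17 in wild-type (limma adjusted p = 0.000173) and 1.05 ± 0.17 in knockout mice (adjusted p = 0.000175), and hippocampus by 1.36 and 1.45 (adjusted p = 1.24e-05 and 7.19e-06).

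Cox7a2, the isoform of most tissues, was at -0.01 from wild-type cortex and at 0.18 from hippocampus and was not called. Markers of mural and muscle cells were summed on each array as well. The summed relative signal of 10 mural cell markers was 27.5 to 30.7 in brainstem. In cortex and hippocampus it was 31.0 on the array of cortex_KO 1 and 20.5 to 27.3 on the others. Of these 10 markers, 4 were higher in wild-type and 2 in knockout brainstem than in cortex, where 19.1% and 18.9% of all genes were. That of 8 muscle markers, of which Ckm was not tested, was 1.45 to 1.79 in cortex, 0.762 to 1.08 in hippocampus and 0.594 to 0.721 in brainstem. Of the 7 tested, 1 was higher and 4 were lower in wild-type brainstem than in cortex, and 2 were higher and 3 lower than in hippocampus. The shares of all genes were 19.1% higher and 16.6% lower than in cortex, and 23% higher and 18.5% lower than in hippocampus. The part of mural and muscle cells in the Cox7a1 difference was not tested.

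Cox6a2, the heart and muscle isoform of subunit 6a that is also known from fast-spiking parvalbumin interneurons, had another order. It was at 2.20, 1.82 and 2.09 in wild-type cortex, 0.91, 0.83 and 1.50 in hippocampus and 1.68, 1.89 and 1.64 in brainstem. Knockout mice had 2.38, 2.03 and 2.09, then 1.46, 1.22 and 1.02, and 1.80, 1.95 and 1.59. The hippocampal arrays lay below all others, by 0.96 ± 0.18 from cortex in wild-type (limma adjusted p = 0.00176) and by 0.93 ± 0.18 in knockout mice (adjusted p = 0.00223). Brainstem and cortex were not called apart (-0.30, adjusted p = 0.211, and -0.39, adjusted p = 0.112). From hippocampus to brainstem Cox6a2 was higher by 0.66 and 0.55, and by 0.49 and 0.38 with slide as a block, where neither was called (adjusted p = 0.180 and 0.296). Without brainstem_KO 1, brainstem_KO 2, hippocampus_KO 2 or hippocampus_KO 3 the knockout difference was not called either (adjusted p from 0.0575 to 0.0987).

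The summed signal of 9 parvalbumin interneuron markers was 18.6 to 22.6 in hippocampus, 26.2 to 32.7 in cortex and 34.8 to 45.3 in brainstem. Of these markers, 3 were lower and 1 was higher in hippocampus than in cortex in each genotype. Over all genes, 10.4% were lower and 6.79% higher in wild-type mice, and 9.43% and 7.18% in knockout mice. Pvalb itself was lower in hippocampus by 0.67 ± 0.15 in wild-type mice on the log2 scale (difference -0.67, limma adjusted p = 0.00671) and higher in brainstem than in cortex by 1.39. In wild-type brainstem 4 of the 9 were higher and 1 lower than in cortex, where 19.1% of all genes were higher and 16.6% lower. The lower one was Lhx6, a transcription factor of interneurons, at -2.74 ± 0.45 (limma adjusted p = 0.000227). The part of these cells in the Cox6a2 difference was not tested. Cox6a1, the other isoform, was at -0.24 in brainstem against wild-type cortex and -0.05 against hippocampus, and was not called.

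Cox8a, the isoform of subunit 8 in most tissues, was the member called as lower in brainstem than in cortex in both genotypes. Its wild-type levels were 7.02, 7.19 and 7.22 in cortex, 6.88, 6.84 and 6.85 in hippocampus and 6.63, 6.95 and 6.68 in brainstem. Its knockout levels were 6.94, 7.22 and 7.05, then 6.94, 7.01 and 6.99, and 6.66, 6.81 and 6.76. Cortex and brainstem did not overlap, with -0.39 ± 0.10 in wild-type (limma adjusted p = 0.00730) and -0.33 ± 0.10 in knockout mice (adjusted p = 0.0199). The knockout call was lost with quantile normalization (-0.20, adjusted p = 0.155) and without brainstem_KO 1 (adjusted p = 0.0726) or cortex_KO 2 (adjusted p = 0.0933).

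The muscle isoform Cox8b varied widely within groups. In hippocampus it was at -0.77, -0.77 and -2.99 on the wild-type and -0.35, -3.12 and -2.99 on the knockout arrays, and no comparison called it (standard error 0.74). The hippocampal arrays with the low values were those with the lowest summed choroid plexus signal, which was 97.4, 64.5 and 13.1 on the wild-type and, on the knockout arrays, 69.0 on the array of mouse 1 and at most 17.4 on the other two. The part of that tissue in the Cox8b values was not tested. Cox4i2, a lung isoform of subunit 4, and Cox8c, a testis isoform, were not tested, since each was well above background on 3 of 18 arrays and on all arrays of no group.

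Cox4i1, the main form of subunit 4, was higher in brainstem than in hippocampus. It was at 7.41, 7.44 and 7.21 in wild-type cortex, 7.08, 7.03 and 7.03 in hippocampus and 7.22, 7.60 and 7.33 in brainstem. The knockout levels were 7.57, 7.50 and 7.19, then 7.08, 7.22 and 7.17, and 7.39, 7.50 and 7.53. Brainstem exceeded hippocampus by 0.33 ± 0.12 in wild-type (limma adjusted p = 0.0317) and by 0.32 ± 0.12 in knockout mice (adjusted p = 0.0402), and neither was called with slide as a block (adjusted p = 0.0664 and 0.0778). The calls were also lost without brainstem_WT 2 or any 1 array of hippocampus_WT, and without brainstem_KO 2, brainstem_KO 3 or any 1 array of hippocampus_KO (adjusted p from 0.0579 to 0.157). The difference of wild-type brainstem from cortex was 0.03, with an interval of -0.22 to 0.28, and that of hippocampus from cortex was -0.30 in wild-type (adjusted p = 0.0900) and -0.26 in knockout mice (adjusted p = 0.143). Cox5a, a subunit that binds a thyroid hormone metabolite, was higher than in cortex by 0.41 and 0.40 and than in hippocampus by 0.55 and 0.54 in wild-type and knockout mice, and with median scaling it was at 0.32 from cortex in both (adjusted p = 0.142 and 0.143). The Cox5a calls from cortex were lost as well without brainstem_WT 2, brainstem_WT 3 or any 1 array of cortex_WT, and without brainstem_KO 3, cortex_KO 2 or cortex_KO 3 (adjusted p from 0.0556 to 0.124).

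Among the other isoforms, Cox6b1, the form of most tissues, was higher in wild-type brainstem than in hippocampus by 0.31 ± 0.12, a call lost with median scaling (adjusted p = 0.0768) and normexp correction (adjusted p = 0.0710), and without brainstem_WT 2, brainstem_WT 3, hippocampus_WT 1 or hippocampus_WT 2 (adjusted p from 0.0675 to 0.134). Its testis form Cox6b2 was at 0.46 ± 0.22 from wild-type cortex. Cox7b was at 0.14 from wild-type cortex and 0.42 from hippocampus, its testis form Cox7b2 at 0.28 and 0.42, and Ndufa4, now counted with complex IV, at 0.09 and 0.25. None of these 4 was called in a regional comparison.

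Cox7c, named after its values were seen, set the widest range in complex IV. Its levels were -2.54, -2.48 and 1.08 in wild-type cortex, 0.03, 0.09 and 0.23 in hippocampus and -3.66, -3.36 and 0.03 in brainstem. On the knockout arrays they were -2.38, -1.83 and 0.83, then 0.04, 0.08 and 0.90, and -4.04, -3.17 and 0.88. In cortex and brainstem the high values were those of the arrays numbered 3, in both genotypes. Slide 5 exceeded slide 4 by 3.27 in cortex, and slide 2 exceeded slide 1 by 4.01 in brainstem. Slide and number cannot be told apart in these 2 regions. No other member differed by over 1 between slides in both of these regions, and of all 22675 genes 390 (1.72%) did. Cox7c was called in no comparison, with a standard error of 1.32.

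**Figure D2:**
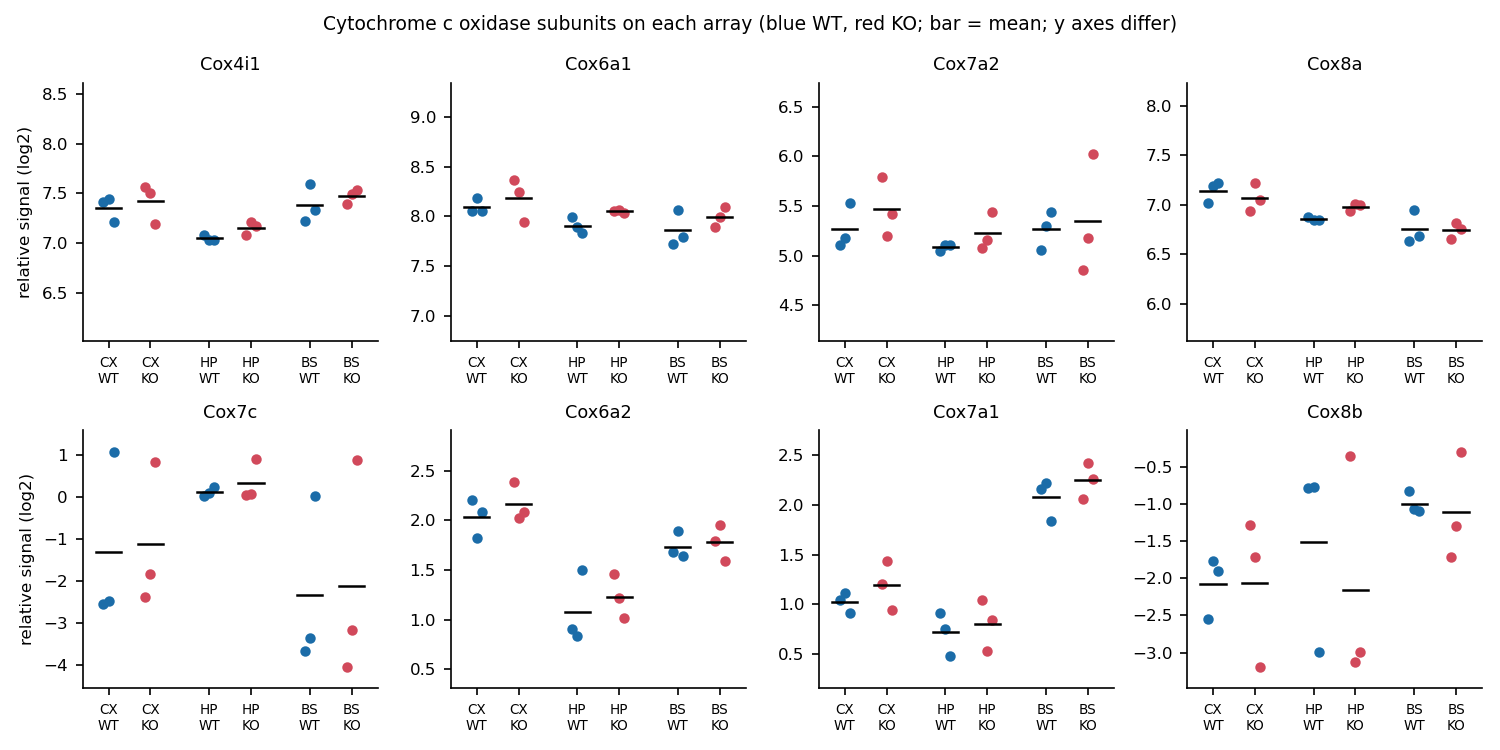
Levels (log2 intensity relative to the array's 75th percentile) of complex IV isoform genes on the 18 arrays, by region and genotype, one point per array. Cox7a1 lies highest on the 6 brainstem arrays, from 1.84 to 2.42, Cox6a2 lies lowest on the 6 hippocampal arrays, from 0.83 to 1.50, and Cox8b is scattered within hippocampus. Levels of different genes are not comparable, since each has its own probe.

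In complex V, 2 of 17 genes were higher in wild-type brainstem than in cortex (11.8%, below the 19.1% of all genes) and 6 than in hippocampus (35.3%, against 23%), with medians of 0.15 and 0.29. The catalytic subunit Atp5b was at 6.83, 6.79 and 7.13 in wild-type cortex, 7.07, 6.82 and 6.98 in hippocampus and 6.78, 7.03 and 7.01 in brainstem, with overlap of all 3 regions. Its differences were 0.02 ± 0.15 from cortex and -0.02 from hippocampus, and it was not called. Its partner Atp5a1 was at 0.37 ± 0.17 from wild-type cortex (limma adjusted p = 0.108) and 0.29 from hippocampus.

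The membrane ring that turns with the protons is made of subunit c, which 3 genes encode with the same mature protein. Atp5g1 was higher in brainstem than in cortex by 0.35 ± 0.11 in wild-type (limma adjusted p = 0.0246) and 0.34 ± 0.11 in knockout mice (adjusted p = 0.0273), and with median scaling by 0.26 in both, where it was not called (adjusted p = 0.0620 and 0.0653). Without any 1 array of these groups but brainstem_WT 3, brainstem_KO 3 or cortex_KO 2, it was not called either (adjusted p from 0.0524 to 0.134). Atp5g2 was at 0.03 from wild-type cortex and 0.30 from hippocampus, and Atp5g3 at 0.11 and -0.09, and neither was called. Atp5pb, a subunit of the stator stalk that was named after its values were seen, was higher than in cortex by 0.35 ± 0.082 and than in hippocampus by 0.37 in wild-type mice, the former at 0.26 and not called with median scaling (adjusted p = 0.0779).

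**Figure D3:**
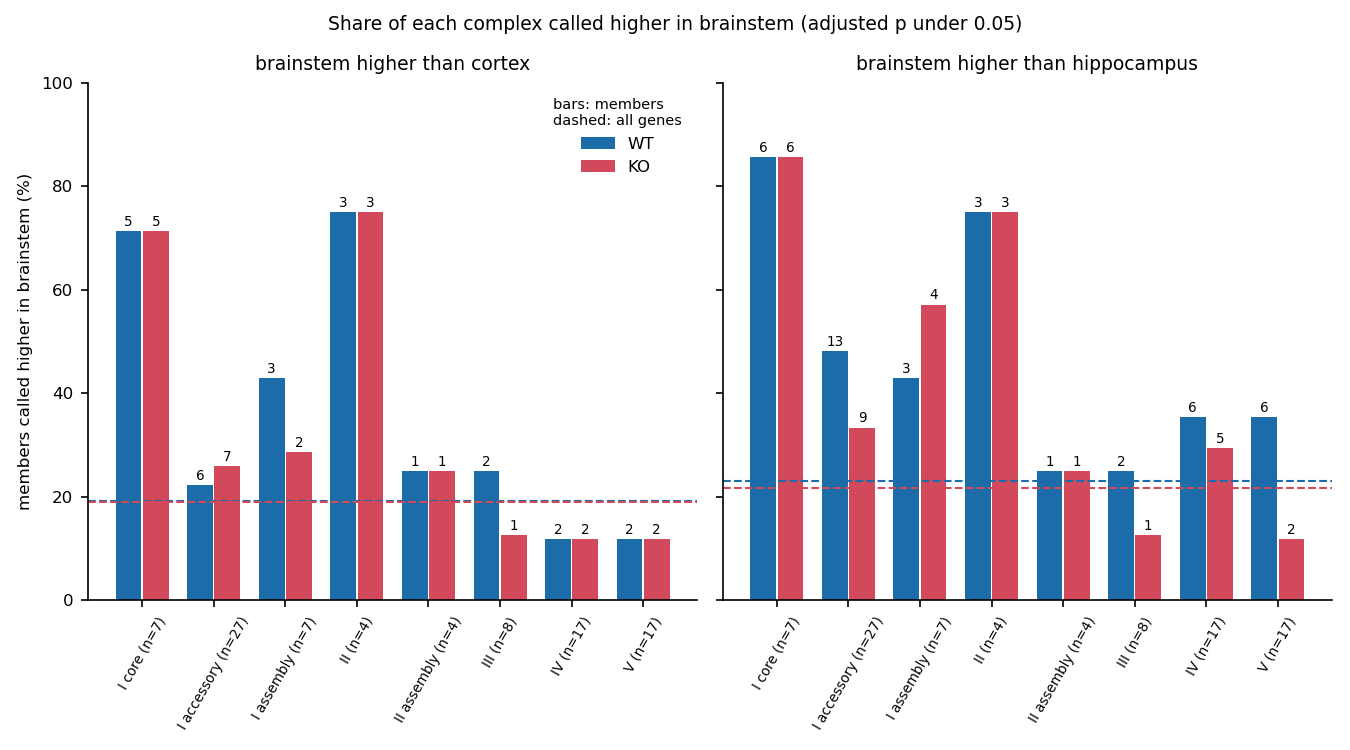
Share of the tested members of each complex (percent) that limma called as higher in brainstem than in cortex and in hippocampus, for wild-type and knockout mice, beside the share of all genes tested. From cortex, wild-type shares run from 11.8% in complexes IV and V to 75% in complex II, which has 4 genes, with 19.1% over all genes.

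Hippocampus differed less from cortex than brainstem did from either. In wild-type mice 4 members were lower and 0 higher in hippocampus, against 10.4% and 6.79% of all genes, and 15 had an unadjusted p under 0.05 in limma (29.5% of all genes). In knockout mice 1 was lower and 0 higher, against 9.43% and 7.18%, and 7 had an unadjusted p under 0.05 (29.3%). The medians over members were -0.13 and -0.07. Without cortex_WT 1, cortex_WT 2 or any 1 array of hippocampus_WT, 2 were lower in wild-type mice, and without cortex_KO 3, 3 were lower in knockout mice. With median scaling, 16 members were lower in wild-type and 4 in knockout mice. The median of all genes then moved as well, from 0.010 to -0.083 in wild-type and from 0.014 to -0.078 in knockout mice. With quantile normalization, 2 members were lower in wild-type mice and 1 was lower and 1 higher in knockout mice. With the mouse number as a block, 7 were lower in wild-type and 2 in knockout mice, and the same block gave 1 and 2 members lower in brainstem than in hippocampus. Over all genes, that block gave 5597 and 5603 calls in either direction between hippocampus and cortex, against 3908 and 3767 without it.

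Besides Cox6a2, the 3 members lower in wild-type hippocampus were Atp5d, Ndufs6 and Ndufaf7. Atp5d, a subunit of the rotating central stalk of the ATP synthase, was at 4.40, 4.49 and 4.48 in wild-type cortex and 3.96, 4.05 and 4.10 in hippocampus, without overlap. The difference was -0.42 ± 0.096 (limma adjusted p = 0.00705), and it was -0.25 in knockout mice (adjusted p = 0.0995). Ndufs6, a zinc-binding subunit needed to complete complex I, was at 4.58, 4.55 and 4.56 in cortex and 4.15, 4.26 and 4.31 in hippocampus, a difference of -0.32 ± 0.099 (adjusted p = 0.0385). Ndufaf7, a methyltransferase that acts in complex I assembly, differed by -0.22 ± 0.071 (adjusted p = 0.0454). The calls of Ndufs6 and Ndufaf7 were lost in every fit without 1 array of these groups but that without cortex_WT 3 for Ndufaf7 (adjusted p from 0.0505 to 0.157), and with quantile normalization (adjusted p = 0.143 and 0.277).

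Most members called between brainstem and another region in knockout mice were called in wild-type mice too. The same overlap was not computed over all genes, so it cannot be read as a trait of the members. Between brainstem and cortex, 26 members were called in wild-type (35.8% of all genes) and 24 in knockout mice (35.6%), with 23 shared (88.5% of the first and 95.8% of the second). In knockout brainstem 23 were higher than in cortex (18.9% of all genes) and 1 was lower (16.7%), and with quantile normalization 35 were higher and 0 lower, while median scaling gave 12 and 1. Between brainstem and hippocampus, 40 were called in wild-type (41.5% of all genes) and 31 in knockout mice (40.6%), with 30 shared (75% and 96.8%). All 31 were higher in knockout brainstem (21.7% of all genes), and 0 were lower (18.9%). In limma 42 members had an unadjusted p under 0.05 there (48.4% of all genes). The number higher was 20 with slide as a block and 19 without hippocampus_KO 2. Over all genes, 7839 and 7852 were then called in either direction, against 9201. The 2 genotypes share no array, but they share slides.

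The median of the members between brainstem and cortex was 0.15 in knockout mice, 0.27 without brainstem_KO 1 and 0.075 without brainstem_KO 3. The array of brainstem_KO 1 had the fewest spots well above background, 28326, and brainstem_KO 3 stood apart in markers. The oligodendrocyte sum was 472 on brainstem_KO 3, the highest of the 6 brainstem arrays, and that of striatal markers was 80.5 there against 27.2 to 32.7 on the others. The part of these differences in the members' medians was not tested.

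**Figure D4:**
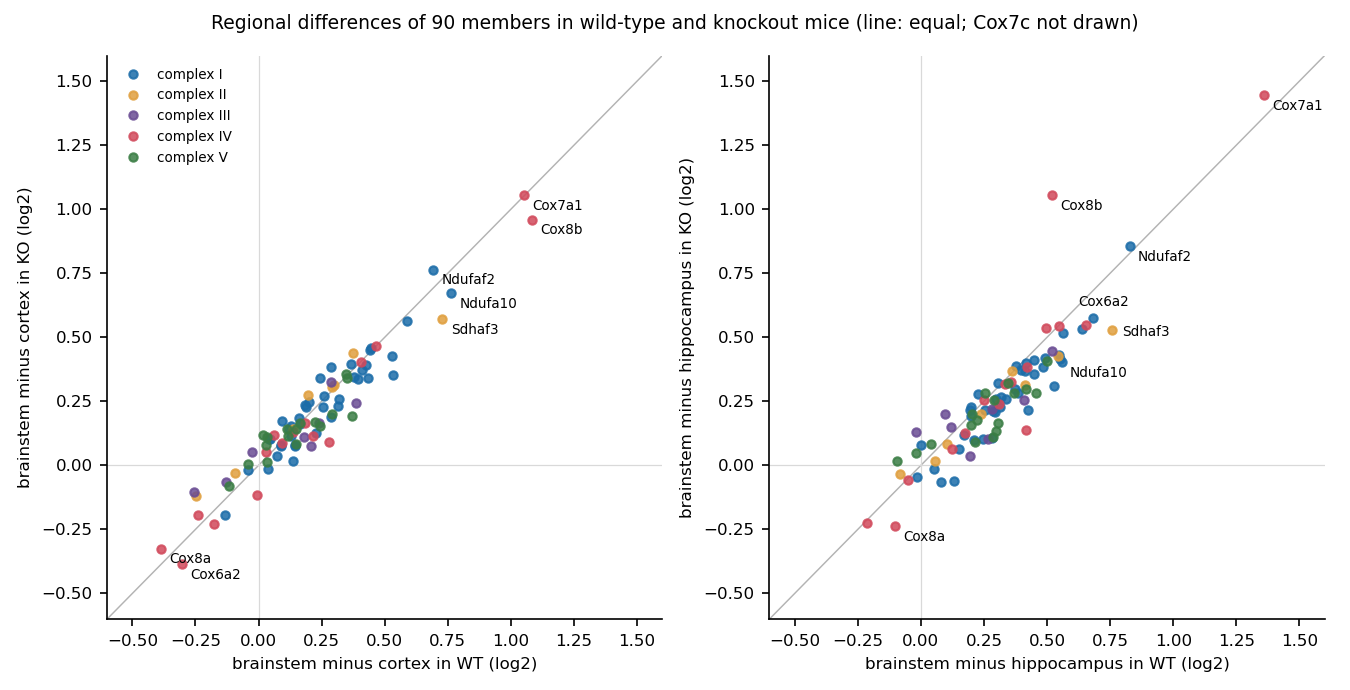
Difference of 90 members between brainstem and cortex and between brainstem and hippocampus (log2) in wild-type mice on the horizontal axis and in knockout mice on the vertical axis, one point per gene. The line marks equal differences. Cox7a1 lies far out at 1.05 in both genotypes from cortex, and Cox7c, whose values differed widely between slides within cortex and brainstem, is not drawn.

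Brainstem differed from the other regions in its cells as well. All 10 oligodendrocyte markers were higher in brainstem than in cortex in both genotypes, with Mog at 1.77 ± 0.18 in wild-type mice, and their summed signal was 175 to 206 in cortex, 147 to 263 in hippocampus and 347 to 472 in brainstem. Of 10 neuronal markers, 3 were higher and 4 lower in wild-type brainstem than in cortex, led by the neurofilament gene Nefm at 1.87 ± 0.14. Of 8 astrocyte markers, 4 were higher and 2 lower, and of 8 microglial markers 4 were lower and 0 higher, with 5 of the latter at an unadjusted p under 0.05 in limma. The shares of all genes between wild-type brainstem and cortex were 19.1% higher and 16.6% lower. The part of cell composition in the regional differences of the members was not tested.

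Loss of Nrf2 was the question of the study, and no respiratory chain gene was called by genotype. In cortex, hippocampus, brainstem and over the 3 regions together, 0 of 91 members were called in limma, against 0.0309%, 0.0176%, 0.0309% and 0.0529% of all genes. With the mouse number as a block, 23 of all genes were called over the regions, against 12 without it, and none of these was a member. At an unadjusted p under 0.05 there were 0 members in each region, where 2.19%, 1.33% and 2.96% of all genes were, and 2 over the 3 regions together, where 6.95% were. The standard error of a difference within 1 region had a median of 0.12 over members and was 0.068 averaged over regions. The 95% interval lay within 0.5 log2 units of 0 for 74 members in cortex, 78 in hippocampus, 76 in brainstem and 89 over the regions together, where the others were Cox7c and Cox8b.

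The members nearest to a call lay in complexes I and III. Uqcr11, a small subunit of complex III, was at 6.07, 6.30 and 6.15 in wild-type and 6.52, 6.35 and 6.02 in knockout cortex, and at 5.91, 5.94 and 5.97 against 6.04, 6.02 and 6.14 in hippocampus. In brainstem it was at 5.86, 6.10 and 5.80 against 6.10 and 6.29, since its spot on the array of brainstem_KO 1 was marked as an outlier and left out of the fit. The genotypes overlapped in cortex and brainstem, and over the regions Uqcr11 was at 0.18 ± 0.075 (limma adjusted p = 0.708). Ndufs5, an accessory subunit of complex I, was at 0.14 ± 0.063 over the regions (limma adjusted p = 0.719). It was at 6.93, 6.90 and 6.93 in wild-type and 7.26, 6.99 and 6.89 in knockout cortex, and the difference in brainstem was 0.15 ± 0.11.

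Within regions, the 3 smallest p-values in cortex belonged to Ndufa8 (0.20 ± 0.15), an accessory subunit of complex I, and to the ATP synthase genes Atp5c1 (0.16 ± 0.12) and Atp5g2 (-0.14 ± 0.12). In hippocampus they belonged to Ndufb6 (0.19 ± 0.12) and Ndufb8 (0.15 ± 0.10) of complex I and to Sdhaf3 (0.23 ± 0.15). In brainstem they included Uqcr11 (0.28 ± 0.14) and Ndufs5. Of the core subunits named above, Cox7a1 and the other isoforms, none had an unadjusted p under 0.05 in limma for genotype in any region.

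The medians of the members by genotype were small and moved with the array. They were 0.057 in cortex, 0.097 in hippocampus and 0.022 in brainstem, with 64, 83 and 58 of 91 members above 0. All genes had medians of 0.0014, 0.022 and 0.0025, with 50.3%, 56.9% and 50.7% above 0. With quantile normalization the members' medians were -0.0077, 0.026 and -0.027, so that the sign in cortex and brainstem turned. Within slides, the median was 0.11 on slide 4 and -0.079 on slide 5 in cortex, 0.063 on slide 2 and 0.11 on slide 3 in hippocampus, and -0.065 on slide 1 and 0.25 on slide 2 in brainstem. Leaving out 1 array moved it to 0.0056 in cortex (without cortex_KO 1), to 0.039 in hippocampus (without hippocampus_KO 3), and to 0.12 or -0.043 in brainstem (without brainstem_KO 1 or brainstem_KO 3).

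Markers of 3 other tissues leaned to one side by genotype within a region, and limma called none of them. The side was the same in all regions for erythrocyte genes alone. All 4 tested erythrocyte genes had positive differences in each region, with medians of 0.41 in cortex, 0.52 in hippocampus and 0.19 in brainstem. All 10 choroid plexus genes had negative differences in cortex (median -0.84) and hippocampus (median -1.17), and 9 had positive ones in brainstem (0.34). Of 8 striatal markers, 8 had negative differences in cortex (median -0.46) and 7 had positive ones in brainstem (0.54). Among brainstem arrays, brainstem_KO 3 stood apart in both lists. The choroid plexus sum was 56.9 there and 25.2 to 30.6 on the others, and the striatal sum was 80.5 there and 27.2 to 32.7 on the others. The part of these tissues in the members' medians was not tested.

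By complex, the averages over the regions had medians of 0.019 for complex I core subunits, 0.060 for accessory subunits, 0.016 for complex I assembly factors and -0.0061 for complex II. The medians were 0.065 for complex III, 0.11 for complex IV and 0.063 for complex V. Over the regions together, the 12 members with the antioxidant response core in their promoter window had a median of 0.055, and the 65 with a window that lacked it had 0.048. In cortex these medians were 0.030 and 0.041, in hippocampus 0.064 and 0.097, and in brainstem 0.043 and 0.020.

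**Figure D5:**
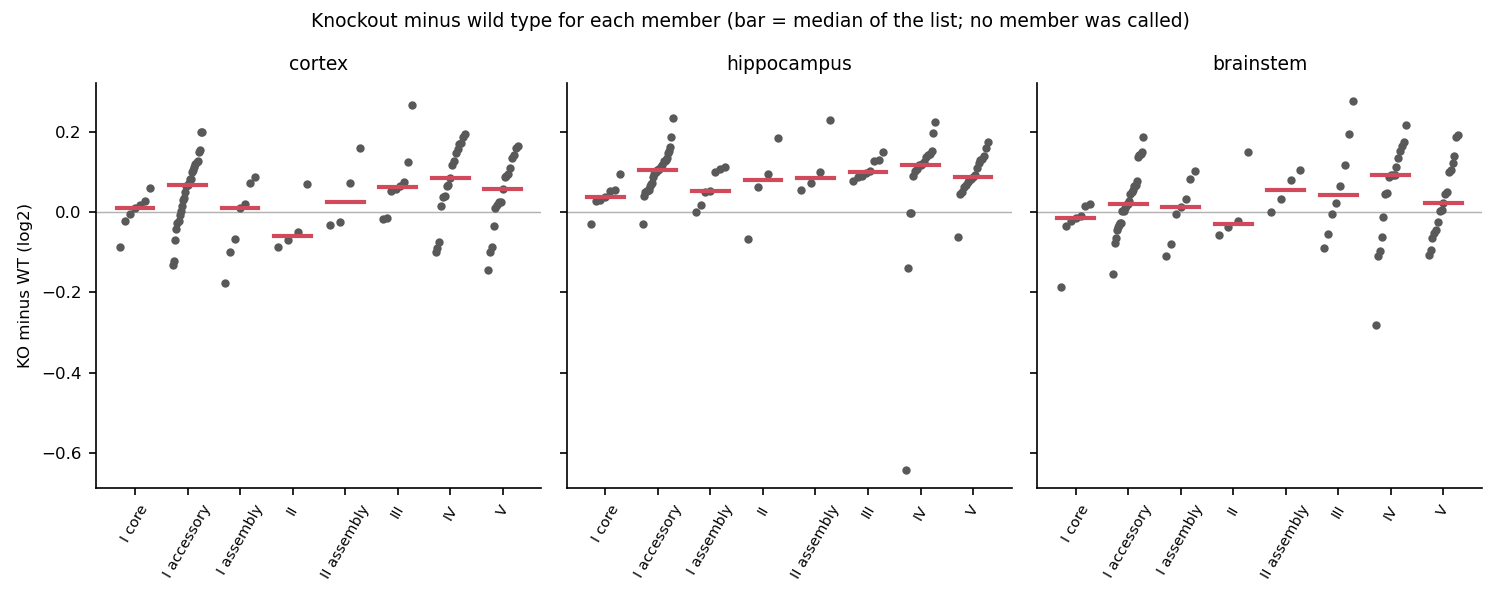
Difference between knockout and wild-type mice (log2) of the tested members by complex in cortex, hippocampus and brainstem, one point per gene. Most points lie within 0.3 of 0, none was called, and the medians of all members are 0.057, 0.097 and 0.022.

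The effect of the knockout was also compared between regions. The interaction tests called 0 members and 0 of all genes in limma in each of the 3 pairs of regions. At an unadjusted p under 0.05 there were 0 members in each, against 0.834% (hippocampus and cortex), 0.886% (brainstem and cortex) and 0.975% (brainstem and hippocampus) of all genes. These differences had a median standard error of 0.17, and a difference of 0.5 lay outside the 95% interval for 61 to 66 of 91 members.

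Other mitochondrial genes were taken from lists outside the symbol rule. The 4 remaining chain subunits on the array (Ndufc1, Ndufc2, Cyc1 and Cycs) had 2 higher in wild-type brainstem than in cortex and 3 than in hippocampus, led by Ndufc2 of complex I at 0.37 ± 0.10 and 0.47 ± 0.10. Of all genes, 19.1% were higher in wild-type brainstem than in cortex and 23% than in hippocampus. Of 32 tested assembly factors with other names, 8 were higher (25%) and 2 lower than in cortex, and 12 were higher (37.5%) and 3 lower than in hippocampus. Tmem126b, which builds the membrane arm of complex I, led them with 1.09 ± 0.11 from cortex (limma adjusted p = 3.47e-06) and 1.04 in knockout mice. Of 15 genes of pyruvate dehydrogenase and the citrate cycle, 4 were higher than in cortex (26.7%) and 7 than in hippocampus (46.7%), with Sucla2, a succinyl-CoA synthetase subunit, at 0.65 ± 0.099 from cortex. Of 16 carriers, pores and import genes, 6 were higher (37.5%) and 1 lower than in cortex, with Phb, a prohibitin of the inner membrane, at 0.52 ± 0.12. No gene of these lists was called by genotype.

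Of 14 genes for the transcription and copying of mitochondrial DNA and of its nuclear partners, 2 were higher (14.3%) and 1 lower in wild-type brainstem than in cortex. The shares of all genes were 19.1% and 16.6%. Ppargc1a, a coactivator that drives mitochondrial biogenesis, was higher by 0.92 ± 0.16 in wild-type (limma adjusted p = 0.000349) and 0.99 ± 0.16 in knockout mice (adjusted p = 0.000185). The factors whose motifs were searched in the promoters were not called from cortex in wild-type mice, with Nrf1 at -0.15 ± 0.15, the GABP subunit Gabpa at -0.34 ± 0.39 and Yy1 at -0.24 ± 0.16. Tfam, which packs mitochondrial DNA, was at 0.07 ± 0.075, and the nuclear receptor Esrra was at 0.25 ± 0.094 (adjusted p = 0.0557) and was higher than in hippocampus by 0.54.

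Several members had more than 1 probe, and the one with the highest mean level was used for the gene. Of 19 members with several tested probes, 4 had probes of opposite sign between wild-type brainstem and cortex and 2 between wild-type brainstem and hippocampus. Between knockout brainstem and cortex there were 2 such members, and between knockout brainstem and hippocampus 3. Over these comparisons, 1 of the probes was called in 3 cases. For Atp5b, another probe was higher in wild-type brainstem by 0.55 ± 0.15 from cortex (adjusted p over all probes = 0.0152) and 0.49 from hippocampus (0.0251) in limma, where the probe described above was at 0.02 and -0.02, so the regional level of Atp5b is uncertain. For Ndufs6, the other probes were at -0.05 and 0.29 from wild-type cortex, the second called (adjusted p = 0.0370). For Sdhaf2, a factor that attaches the flavin to Sdha, the 3 probes were at -0.03, 0.31 and 0.42 between knockout brainstem and cortex, the last called (adjusted p = 0.0461).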

How the data were processed

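Total RNA of cortex, hippocampus and brainstem was the material, and amplified RNA carried the dye Cy3, per the labels' protocols. Per the file headers, the arrays were quantified with Agilent Feature Extraction 10.7.3.1, and the deposited scanner files give each spot's processed intensity after background subtraction and spatial detrending, with no normalization between arrays. The 30 to 140 spots per array marked as outliers were left out, spots of a probe were averaged, and log2 intensity minus the array's 75th percentile (636 to 1102) was used in place of the deposited intensity. Probes were kept if well above background on every array of some group. Symbols came from RefSeq through the probe's transcript (26690 of 41174 probes with 1 symbol, 14484 with none), and a gene was represented by its probe of highest mean, which gave 22675 tested genes.

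Comparisons were made with limma 3.58.1 in R 4.3.3 (1 mean per group, 12 residual and 2.34 prior degrees of freedom, two-sided, Benjamini-Hochberg over all genes), after the procedure was tested on simulated data. Precision is limited by the number of arrays, 3 in a group. Alternatives were normexp background correction with an offset of 50 (on the median spot signal, since the files give no mean), quantile normalization, median scaling, other filters, all probes, blocks, moderation with trend, the deposited table, and each array left out. Slide as a fixed block was added after the data were seen. Wild-type and knockout arrays of the same number deviated together in all 9 pairs (correlation 0.24 to 0.62). The 2 arrays of each such pair also shared a slide, so number and slide cannot be told apart in these correlations. A deposited table over all samples holds intensity too. Each of its 18 columns equalled 1 array, which in 11 columns was the one named and in 7 another, so it served only as an alternative.

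The members, gene lists and tests were chosen with earlier results of these data known. Genes named are the 5 largest called differences in each direction of a comparison (with none called, the 3 smallest p), a list of catalytic and core subunits that holds part of the complex I core, the tissue isoforms, members not tested, and members whose probes disagreed where 1 was called. For other lists the called gene with the largest difference is named. 1 gene that these rules name is not reported here. Genes outside these rules are said to be named after their values were seen. The headers name the mm9 build, and coordinates are those of the RefSeq promoter table (GRCm38.p6).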

Additional observations from a re-analysis of the deposited data

How the results depend on the processing

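No called difference of a member and no median between brainstem and another region turned its sign under the alternatives run. Medians that did were those given above for genotype, that over the regions (0.053, and -0.0064 with quantile normalization), that of knockout hippocampus against cortex (-0.070, and 0.0065 with quantile normalization) and those of the genotype effect between regions. Counts and medians that moved were these. With the deposited table, 0 members were lower in hippocampus than in cortex in either genotype, and 1 in wild-type and 0 in knockout mice were lower in brainstem than in cortex. With median scaling, 12 were higher in brainstem than in cortex in each genotype, 16 in wild-type (median -0.23) and 4 in knockout mice were lower in hippocampus. The medians of all genes were then -0.058 and -0.062 for brainstem against cortex, and -0.083 and -0.078 for hippocampus against cortex, in wild-type and knockout mice. With quantile normalization, 35 were higher and 0 lower in knockout brainstem than in cortex, 2 were lower in wild-type hippocampus (median -0.024), and 1 was higher in knockout hippocampus. Without a filter or with slide as a random block, 2 were lower in wild-type hippocampus and 1 in wild-type brainstem than in cortex. With trend and robust moderation, 7 were lower in wild-type hippocampus and 1 in knockout brainstem than in hippocampus. With slide as a fixed block, 20 were higher in knockout brainstem than in hippocampus. The replicate block by number gave 7 and 2 lower in wild-type and knockout hippocampus than in cortex, and 1 and 2 lower in brainstem than in hippocampus, and so, for the last pair, did a block by mouse (1 and 2), for which same-numbered arrays of other regions correlated at over 0.1 in 14 of 18 pairs. The block by number raised all genes called by genotype over the regions from 12 to 23, and over the alternatives these ran from 0 to 23, and from 0 to 11 in cortex, 0 to 6 in hippocampus and 0 to 13 in brainstem. The cause of these shifts was not tested. The median of all genes moved by over 0.1 with no filter in knockout brainstem against hippocampus, from -0.0038 to 0.11.

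Leaving out 1 array gave 18 to 21 (wild-type) and 18 to 27 (knockout) members higher in brainstem than in cortex, with 1 to 3 and 0 to 2 lower and medians of 0.12 to 0.21 and 0.075 to 0.27. From hippocampus, 27 to 40 and 19 to 40 were higher and 0 to 1 and 0 to 2 lower, with medians of 0.26 to 0.34 and 0.16 to 0.34. In hippocampus against cortex, 2 to 3 and 1 to 3 were lower. Over all genes, calls in either direction ran from 6595 to 7530 and from 7009 to 8760 for brainstem against cortex. For brainstem against hippocampus they ran from 7840 to 9187 and from 7771 to 9703. For hippocampus against cortex they ran from 2465 to 3485 and from 2525 to 3563. The genotype median in brainstem ran from -0.043 to 0.12, and the medians of its difference between regions from -0.081 to 0.074 (brainstem and cortex), -0.14 to 0.034 (brainstem and hippocampus) and -0.010 to 0.093 (hippocampus and cortex). Over every alternative and all members, 299 calls were lost and 210 gained, and 1 member that was not called, Ndufaf5, turned from -0.06 to a called 0.53 between knockout brainstem and hippocampus with slide as a fixed block.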

Other observations

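The deposited table of the whole series labelled 7 of its 18 columns with another array than the scanner files did. In the table, the column named for cortex of knockout mouse 3 held the values of wild-type hippocampus 1, the 5 columns from wild-type hippocampus 1 to knockout 2 each held the next hippocampal array, and that of knockout 3 held knockout cortex 3. With the columns taken by name, Cox6a2 differed between hippocampus and cortex by -0.78 (limma adjusted p = 0.181) in wild-type and -0.33 (adjusted p = 0.855) in knockout mice, against -0.96 and -0.93 from the scanner files, where both were called.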
